A study of Mus musculus with 11 samples.

Results

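The genes described here encode the collagens, laminins, nidogens and perlecan, the proteins of basement membranes and of the fibrous matrix around them. They were matched by symbol: every collagen alpha chain, every alpha, beta and gamma chain of laminin, Nid1, Nid2 and Hspg2. The pattern matched 58 of the 46078 genes counted. Col1a1, Col1a2, Col3a1 and Lama2 were left out by the rule, so 54 members remained: 6 collagen IV chains, 10 laminin chains, 3 genes for nidogens and perlecan, 2 multiplexin collagens, 8 fibrillar collagens, 6 collagen VI chains, 9 fibril-associated collagens, 4 membrane collagens and 6 other collagens.

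A basement membrane is a thin sheet of matrix built on a laminin network, made of trimers of 1 alpha, 1 beta and 1 gamma chain that cells anchor through integrins and dystroglycan. A second network of collagen IV trimers gives it strength, and nidogens and perlecan bridge both. In the embryonic cortex such a sheet covers the pial surface, where radial glial endfeet attach, and another surrounds the blood vessels. Endothelial cells, pericytes and meningeal fibroblasts are known sources of its collagen IV. Fibrillar collagens make the cables of connective tissue and cartilage, and collagen IX coats cartilage fibrils.

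The libraries came from a study of L3mbtl3, a chromatin reader with MBT domains that the series' title ties to the Polycomb complex PRC1 and to neurogenesis in the neocortex. All 11 libraries were polyadenylated RNA of CD-1 mouse embryos. At E12.5 whole dorsal telencephalon was dissected from 2 L3mbtl3 +/- embryo samples, 1 wild-type sample and 2 L3mbtl3 -/- samples, and the +/- and wild-type samples together were the controls. For the other groups wild-type embryos were electroporated at E12.5 with pCIG2, a GFP plasmid, empty in 3 control libraries and carrying L3mbtl3 in 3 gain libraries, and at E15.5 the cells with GFP were sorted. The promoter of the plasmid, the knockout allele and whether embryos were pooled were not given in the sources used here. The sorted cells are a selected fraction of the electroporated brain, and the purity of the sort was not measured here.

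Library totals ran from 16527551 to 26658718 counts, and 3 counts, the most that a count of 0 allows, came to 0.113 to 0.182 CPM (counts scaled to a library total of 1000000). L3mbtl3 read 51.5, 46.4 and 52.9 CPM with the empty plasmid and 1411, 1158 and 824 CPM with added L3mbtl3 (log2 difference 4.49, edgeR adjusted p = 0.00136, higher in 3 of 3; 0.0539 without GFP control replicate 2). The E12.5 controls had 61.5, 64.1 and 64.7 CPM and the libraries labelled knockout 74.5 and 77.2 CPM. The knocked-out gene was thus not lower in the libraries labelled knockout (log2 difference 0.27, SE 0.0539, adjusted p = 0.0128 by edgeR's quasi-likelihood test, above the control mean in 2 of 2). The difference was 0.23 and not called without knockout replicate 2 or with a term for embryo sex. Counts over the whole gene do not show which part of the transcript is left. The library labelled knockout replicate 1 and all E12.5 controls were male and that labelled knockout replicate 2 female by Xist and Y-linked counts. A sex term in the knockout comparison thus falls on that 1 library and nearly amounts to leaving it out. The GFP controls and gain replicate 2 were male and gain replicates 1 and 3 female. The labelled tissue held its markers, with 10 dorsal apical progenitor genes summing to 3035 to 3235 CPM at E12.5 and 1732 to 2461 CPM in sorted cells. The GFP controls differed from each other: genes of the ventral telencephalon and GABAergic neurons summed to 855 CPM in replicate 1, 278 in replicate 2 and 23.4 in replicate 3.

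The members took 0.368% to 0.433% of all counts in the 5 E12.5 libraries and 0.0366% to 0.0529% in the 6 sorted libraries. Between 51 and 53 of the 54 were above 3 counts in each E12.5 library, against 39 to 49 in sorted cells. Col10a1, the collagen of hypertrophic cartilage, had 1 count in each of 2 E12.5 libraries and 0 in the other 9 libraries. Levels were steady within the E12.5 groups: the median ratio of the highest to the lowest library was 1.19 over the 52 members with enough counts in the controls. It was 1.39 among the gain libraries and 2.90 among the GFP controls, over 37 members each.

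**Figure D1:**
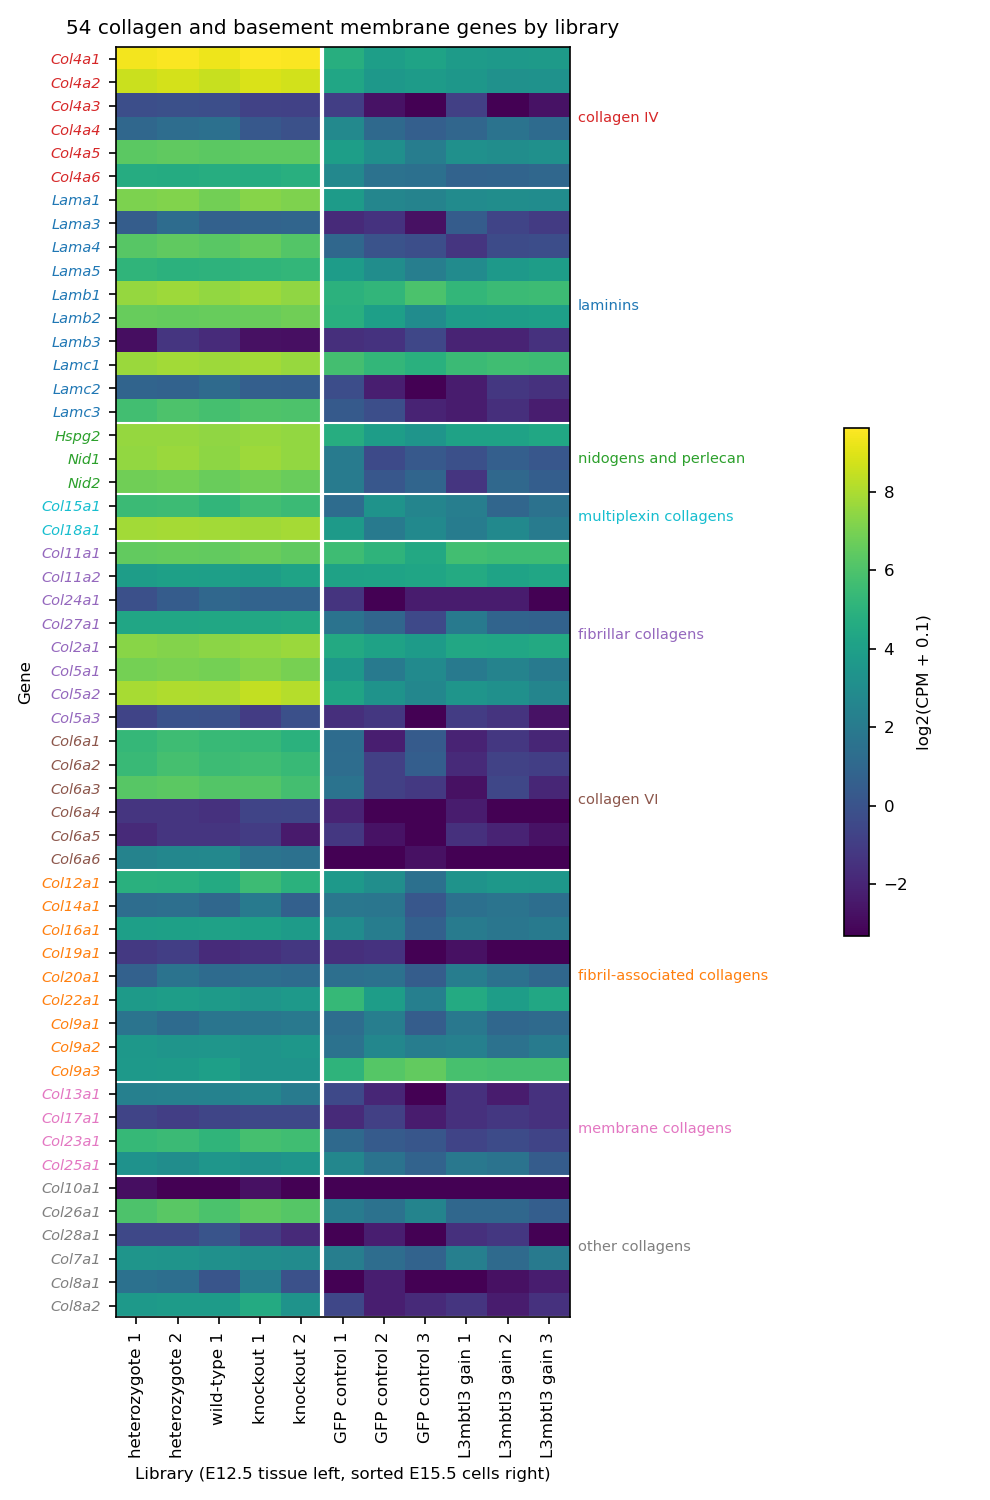
Level of each of the 54 members (rows, grouped by class) in each of the 11 libraries (columns, grouped by sample group), as log2(CPM + 0.1), tissue on the left and sorted cells on the right. Genes such as Col4a1, Lamc1 and Nid1 are higher in all 5 E12.5 libraries than in any of the 6 sorted libraries, while Col9a3 runs the other way, from 10.4 to 15.6 CPM at E12.5 against 34.6 to 89.98 CPM in sorted cells.

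Per kilobase of exon, Col4a1 was the most abundant member at E12.5, with a control mean of 99.6 CPM per kilobase. Col4a2 followed at 59.6, then Col18a1 at 32.8, Nid1 at 30.8, Col5a2 at 26.9, Col2a1 at 26.4 and Lamc1 at 25.7 CPM per kilobase. In the sorted GFP controls the order was different: Col9a3 led with a mean of 17.1 CPM per kilobase, followed by Lamc1 at 4.91, Lamb1 at 4.36, Col2a1 at 3.02 and Col4a1 at 2.99. The last 4 of these overlapped between libraries, at 3.54 to 6.55, 3.18 to 6.19, 2.24 to 3.86 and 2.25 to 4.10 CPM per kilobase.

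The sorted E15.5 controls were then set against the E12.5 tissue controls. Age, sorting, electroporation, the tissue taken and the L3mbtl3 genotype differ together in this contrast and cannot be told apart, and in bulk RNA fewer cells of a type cannot be told from less RNA per cell. Most of the set was lower in sorted cells: 38 of the 48 members that passed the count filter fell and 2 rose at an adjusted p under 0.05. Over all 15968 genes tested 62.3% were called, 31.3% lower and 31.1% higher. The members' median log2 difference was -2.96, against -0.02 over all genes tested. When libraries were scaled by their totals alone the median of all genes moved to -0.30, the calls over all genes split into 3590 higher and 6525 lower instead of 4963 and 4992, and 39 members fell and 1 rose.

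**Figure D2:**
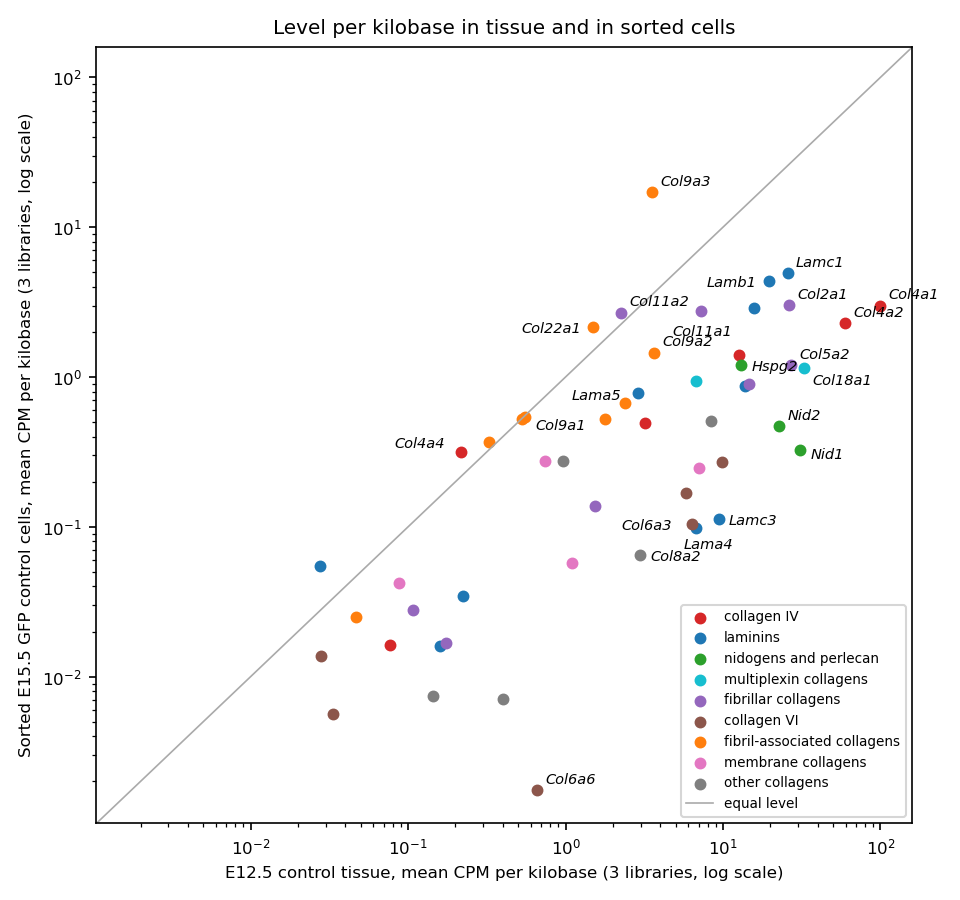
Mean CPM per kilobase of each member in the E12.5 controls (horizontal, log axis, n = 3) and in the sorted GFP controls (vertical, log axis, n = 3), coloured by class, with the line of equal levels; Col10a1, at 0 in sorted cells, is not drawn. Most members sit below the line, such as Nid1 at 30.8 against 0.324 CPM per kilobase, while Col9a3 sits above it at 3.56 against 17.1.

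Collagen IV, the network collagen of all basement membranes, summed to 1159, 1288 and 1114 CPM in the E12.5 controls and to 76.7, 40.8 and 40.0 CPM in the GFP controls. Of its 6 chains 4 fell. Col4a1, which makes the common trimer with Col4a2, had 663, 738 and 636 CPM in tissue and 27.9, 15.3 and 18.0 CPM in sorted cells, a log2 difference of -4.79 (SE 0.229, edgeR adjusted p = 2.97e-05). Col4a2 had 385, 434 and 365 CPM against 20.03, 11.8 and 13.6 CPM, a difference of -4.44 (SE 0.202, edgeR adjusted p = 2.8e-05). For both chains the lowest tissue library was far above the highest sorted one.

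Col4a5 and Col4a6, the X-linked chains that form a trimer found in some epithelial and muscle basement membranes, also fell. Col4a5 had 82.6, 88.9 and 83.3 CPM in tissue and 15.2, 8.76 and 4.38 CPM in sorted cells (log2 difference -2.91). Col4a6 had 25.7, 24.4 and 26.2 CPM against 6.37, 2.79 and 2.64 CPM (-2.43). Col4a3 and Col4a4, which join Col4a5 in the mature kidney, were rare in both. Col4a4 read 1.88, 2.36 and 2.64 CPM in tissue and 6.66, 2.03 and 1.39 CPM in sorted cells, with overlapping groups (0.81, edgeR adjusted p = 0.253).

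The 6 chains are encoded in 3 head-to-head pairs (GRCm38, deposited gene coordinates). Col4a1 lies on the minus strand of chromosome 8 (11198423 to 11312826) and Col4a2 on the plus strand (11312805 to 11449287), so their starts share 22 bases. Between Col4a4 and Col4a3 on chromosome 1 there are 71 bases, and between Col4a6 and Col4a5 on the X chromosome 1308 bases. The promoters of the most abundant pair, and that of Col4a4, the collagen IV chain that differed in the knockout comparison below, are shown from RefSeq (GRCm38.p6), from 250 bases before to 50 after each gene's start. The Col4a1 window is chr8:11312777-11313076 (minus strand), the Col4a2 window chr8:11312555-11312854 (plus strand) and the Col4a4 window chr1:82586800-82587099 (minus strand). Capitals mark a CCAAT box (CCAAT, or ATTGG on the other strand) or a GC box (GGGCGG, or CCGCCC on the other strand).
Col4a1: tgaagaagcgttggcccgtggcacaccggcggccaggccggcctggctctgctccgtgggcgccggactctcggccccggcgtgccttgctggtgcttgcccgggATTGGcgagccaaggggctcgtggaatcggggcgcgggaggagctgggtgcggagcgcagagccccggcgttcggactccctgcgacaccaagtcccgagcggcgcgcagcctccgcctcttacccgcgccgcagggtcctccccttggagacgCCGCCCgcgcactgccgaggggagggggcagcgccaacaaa
Col4a2: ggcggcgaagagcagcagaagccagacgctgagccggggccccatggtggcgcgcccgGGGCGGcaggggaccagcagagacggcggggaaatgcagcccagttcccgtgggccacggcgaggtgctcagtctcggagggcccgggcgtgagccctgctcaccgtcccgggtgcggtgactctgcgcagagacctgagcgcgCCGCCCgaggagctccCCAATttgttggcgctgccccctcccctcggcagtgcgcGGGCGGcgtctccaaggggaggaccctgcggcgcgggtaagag
Col4a4: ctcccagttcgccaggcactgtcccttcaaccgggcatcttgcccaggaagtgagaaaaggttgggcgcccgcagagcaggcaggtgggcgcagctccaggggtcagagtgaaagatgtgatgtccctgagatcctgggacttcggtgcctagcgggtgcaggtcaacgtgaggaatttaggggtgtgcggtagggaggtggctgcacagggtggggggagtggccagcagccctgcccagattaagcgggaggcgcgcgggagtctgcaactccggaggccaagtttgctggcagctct
The 2 chromosome 8 windows overlap, so the GC box near the 3′ end of the Col4a1 window is the last one in the Col4a2 window read on the other strand. Col4a1 held 1 CCAAT box and 1 GC box, Col4a2 1 CCAAT box and 3 GC boxes, and Col4a4 held none of these letters. Among the 43 windows found for 39 of the members, 60.5% held the GC box letters and 32.6% the CCAAT letters. Over all 32851 RefSeq windows, 35.7% held the GC box letters and 37.4% the CCAAT letters. The TATA box letters (TATAAA, either strand) were in 9.3% of the member windows and 13.6% of all windows.

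The ratio between the chains of the first pair is free of library scaling. Per kilobase, Col4a1 was 1.65 to 1.69 times Col4a2 in the E12.5 controls (mean 1.67 ± 0.0188 SD, n = 3) and 1.26 to 1.35 times in the GFP controls (1.30 ± 0.0490, n = 3). The ranges did not overlap (exact two-sided permutation test p = 0.1, also 0.1 after adjustment over the 4 ratios and shares tested in this way, which is the smallest p that 3 against 3 libraries allow). Ranges without overlap always give this p, so it adds nothing to them. The ratio was 1.16 to 1.34 in the gain libraries and 1.63 to 1.71 in the libraries labelled knockout.

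**Figure D3:**
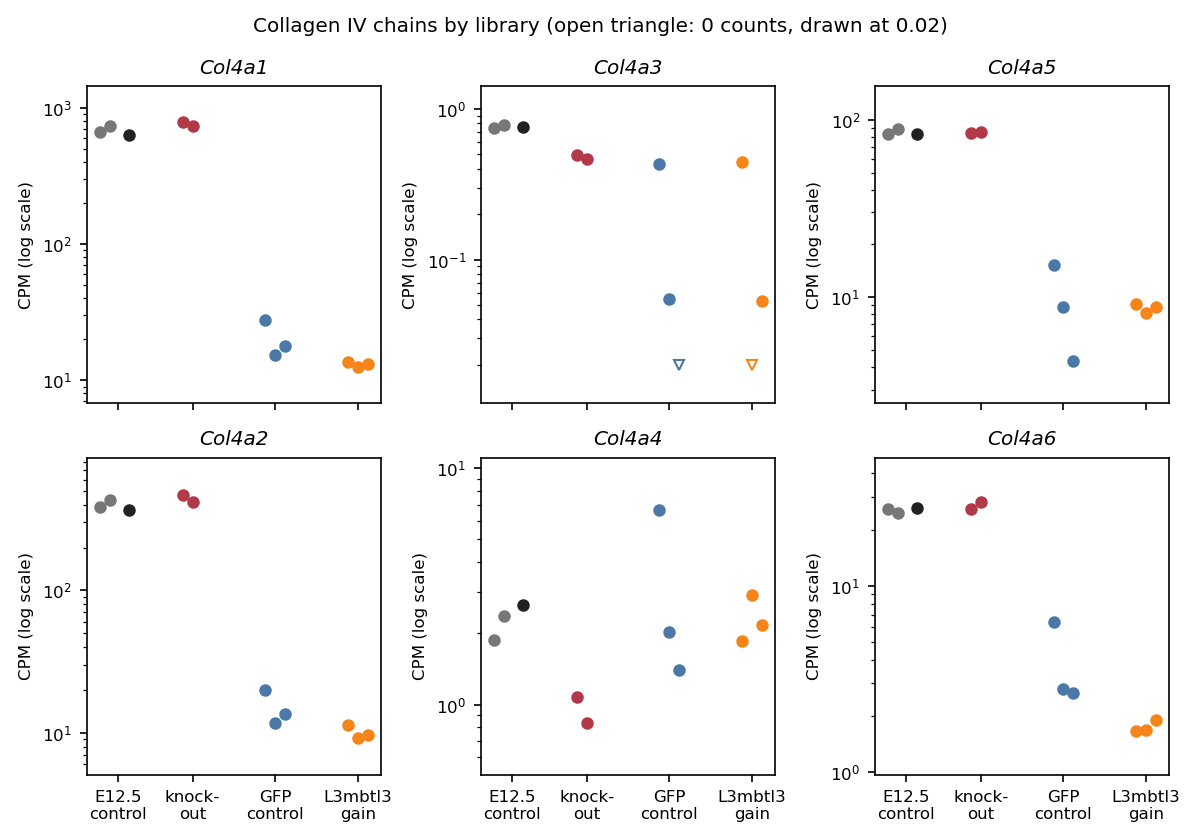
CPM of the 6 collagen IV chains, 1 panel per chain with its own log axis and 1 point per library, by sample group; grey and black points are the heterozygote and wild-type controls and open triangles stand for 0 counts. Col4a1 goes from 636 CPM or more in the E12.5 controls to 27.9 CPM or less in the GFP controls, while the Col4a4 points of these groups overlap.

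The 9 laminin chains that passed the filter all fell, with a median log2 difference of -2.41. Lamc1, the gamma chain of most laminins, had 205, 225 and 208 CPM in tissue and 54.2, 38.4 and 29.3 CPM in sorted cells (-2.13, SE 0.192, edgeR adjusted p = 0.000179). Lamb1, its usual beta partner, had 187, 208 and 186 CPM against 31.6, 36.8 and 61.4 CPM (-1.88, SE 0.273, edgeR adjusted p = 0.00123). No sorted library reached the tissue range for either gene. Lamc1 stood at 0.251 to 0.270 times Col4a1 per kilobase in the E12.5 controls and at 1.34 to 2.07 times in the GFP controls.

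The alpha chain decides which laminin is made and which receptors bind it. Lama4, the chain of laminins in vessel walls, had 77.4, 86.6 and 79.2 CPM in tissue and 1.92, 0.876 and 0.769 CPM in sorted cells (-5.81, SE 0.295, edgeR adjusted p = 3.27e-05). Lama1, the chain of embryonic and pial basement membranes, had 132, 146 and 117 CPM against 13.6, 5.97 and 5.34 CPM (-3.73, SE 0.344, edgeR adjusted p = 0.000195). Lama5, which replaces Lama1 in many tissues as they mature, had 35.0, 31.5 and 32.8 CPM against 13.9, 8.16 and 4.47 CPM (-1.65, SE 0.347, edgeR adjusted p = 0.00593). All 3 chains were lower in every sorted library than in every tissue library.

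The makeup of the laminin chains is also free of library scaling. As a share of the 5 alpha chains per kilobase, with Lama2 counted in, Lama4 made up 24.8% ± 1.23 in the E12.5 controls and 4.06% ± 0.480 in the GFP controls (SD, n = 3 each). Lama5 made up 10.8% ± 1.15 and 31.9% ± 6.93. Lamc3, a gamma chain that joins few trimers, had 52.8, 63.5 and 54.8 CPM in tissue and 1.15, 0.766 and 0.144 CPM in sorted cells (-6.11, SE 0.453, edgeR adjusted p = 9.12e-05). It was 26.5% ± 0.945 of gamma chains in tissue and 2.02% ± 1.18 in sorted cells. None of these shares overlapped between the groups, and each gave p = 0.1 in the exact permutation test, the smallest it allows. That p follows from the lack of overlap and adds nothing to it. The abundant beta chains Lamb1 and Lamb2 showed no such separation. Lamb1 was 53.7% to 57.7% of beta chains in tissue and 39.8%, 58.7% and 81.9% in the GFP controls. The rare Lamb3 was at most 0.126% in tissue and 0.453% to 1.15% in the GFP controls, on at most 12 counts per library.

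**Figure D4:**
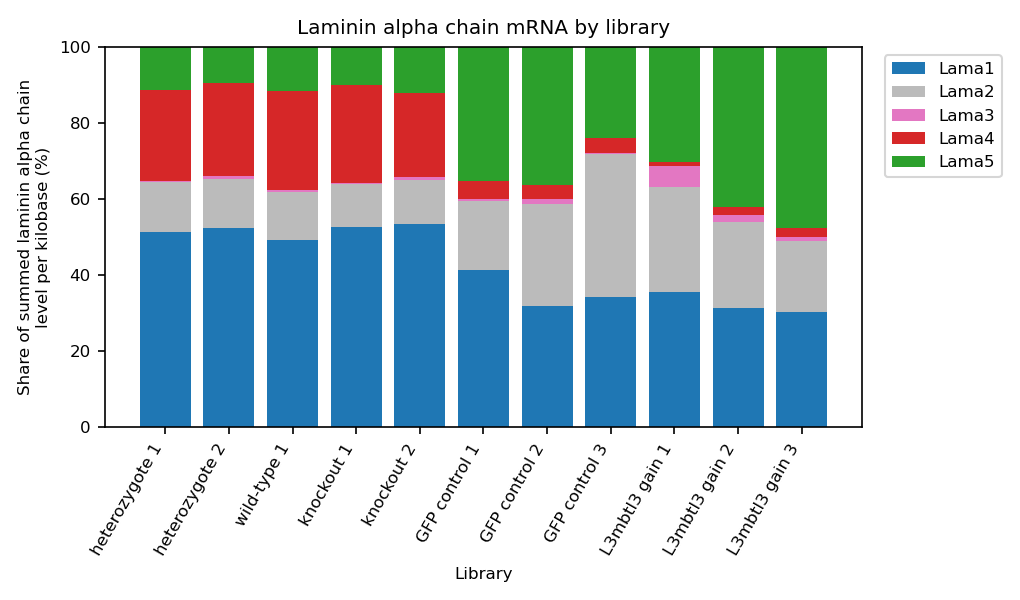
Share of each laminin alpha chain in the sum of the 5 alpha chains per kilobase (percent, stacked bars from 0, 1 bar per library, by group). Lama1 is the largest share in all 5 E12.5 libraries, at 49.1% to 53.5%, and Lama4 shrinks from 22.1% or more there to 4.60% or less in the 6 sorted libraries.

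The genes that link both networks fell as well. Nid1, which binds the laminin gamma-1 chain and collagen IV, had 184, 201 and 173 CPM in tissue and 4.12, 0.657 and 1.11 CPM in sorted cells (-6.28, SE 0.548, edgeR adjusted p = 0.000157). Its paralog Nid2 had 111, 121 and 103 CPM against 4.07, 1.04 and 1.78 CPM (-5.32, SE 0.414, edgeR adjusted p = 0.000105). Hspg2, which encodes the heparan sulfate proteoglycan perlecan, had 192, 190 and 177 CPM against 26.5, 14.8 and 10.8 CPM (-3.17, SE 0.294, edgeR adjusted p = 0.000199). GFP control replicate 1 was the highest sorted control for all 3 genes, still far below the tissue.

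The multiplexins, collagens that sit in basement membranes, also fell. Col18a1, whose C-terminal fragment is endostatin, had 228, 237 and 225 CPM in tissue and 13.2, 3.996 and 6.88 CPM in sorted cells (-4.57). Col15a1 had 44.5, 46.0 and 37.0 CPM against 2.25, 9.91 and 5.72 CPM (-2.56). Sorted replicate 2, not replicate 1, was the highest for Col15a1.

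Collagen VI, a beaded filament at the border of basement membrane and connective tissue, was low in sorted cells: 8.10, 1.04 and 2.93 CPM summed over its 6 chains, against 165, 192 and 167 CPM in tissue. Its 4 tested chains all fell. Col6a3, the largest chain of the common trimer, had 75.6, 82.4 and 70.9 CPM in tissue and 2.97, 0.438 and 0.337 CPM in sorted cells (-5.65, edgeR adjusted p = 0.000485). Its partners Col6a1 (-4.88) and Col6a2 (-4.84) fell too. Col6a6 had 375 counts over the 3 tissue controls and 1 over the 3 sorted controls, a ratio of 358 with an exact 95% interval of 63.8 to 14160 that covers counting error only.

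Of the fibrillar collagens, 6 of 8 fell and 1 rose. Col5a2, which with Col5a1 starts the assembly of collagen I fibrils, had 244, 273 and 258 CPM in tissue and 18.5, 9.96 and 6.16 CPM in sorted cells (-4.22). Col2a1, the cartilage collagen that is also transcribed in the early neuroepithelium, had 160, 148 and 166 CPM against 23.1, 17.7 and 13.5 CPM (-2.86, SE 0.173, edgeR adjusted p = 4.9e-05). Col11a1, a chain of the thin fibrils of collagen XI, had 92.1, 93.4 and 91.6 CPM against 48.6, 33.8 and 22.4 CPM (-1.15). Its partner in collagen XI, Col11a2, went slightly the other way, with 14.6, 16.03 and 15.8 CPM in tissue and 17.4, 18.2 and 19.6 CPM in sorted cells (0.52, SE 0.127, edgeR adjusted p = 0.0103). This call was lost with scaling by totals alone (0.25, adjusted p = 0.0916) and without heterozygote replicate 1 (0.48, adjusted p = 0.0563).

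The fibril-associated collagens were the only class of the 9 with a median above 0: of 8 tested, 3 fell and 1 rose, with a median of 0.23. The sign of this median rests on the scaling used in the fit. The genes on either side of it, Col9a1 and Col20a1, had mean CPM of 2.81 and 2.23 in tissue and 2.73 and 2.19 in sorted cells. The class sum was 89.2, 91.0 and 88.1 CPM in tissue and 107, 118 and 107 CPM in sorted cells. Col9a3 alone gave 34.6, 73.7 and 89.98 CPM of the sorted sums. Col9a3, a chain of collagen IX, had 12.53, 13.1 and 15.6 CPM in tissue and 34.6, 73.7 and 89.98 CPM in sorted cells (2.56, SE 0.372, edgeR adjusted p = 0.00123, higher in 3 of 3). The groups did not overlap. The other chains of the collagen IX trimer did not rise with it. Col9a2 had 11.8, 10.8 and 11.2 CPM in tissue and 2.83, 6.35 and 4.33 CPM in sorted cells, and it fell (-1.05, edgeR adjusted p = 0.0199). Col9a1 had 3.04, 2.18 and 3.20 CPM against 2.35, 4.54 and 1.30 CPM (0.21, edgeR adjusted p = 0.705). Col22a1, found at tissue junctions, spread from 4.76 to 40.4 CPM across the sorted controls and spanned the tissue range of 12.98 to 14.8 CPM.

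Among the remaining collagens, Col8a2, a short-chain collagen of endothelial and corneal membranes, had 12.6, 13.7 and 13.5 CPM in tissue and 0.575, 0.109 and 0.192 CPM in sorted cells (-5.19, edgeR adjusted p = 0.00013). The lowest of those sorted values lies below 3 counts. Col26a1 fell by 3.75 and Col23a1, a membrane collagen shed from the cell surface, fell by 4.56 on the log2 scale. Col25a1, a neuronal membrane collagen, had 9.60, 8.11 and 10.99 CPM in tissue and 6.18, 2.90 and 1.64 CPM in sorted cells (-1.17, edgeR adjusted p = 0.0508).

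Genes that act on or bind these proteins were called in both directions. Of 26 tested genes for collagen synthesis and crosslinking, 13 fell and 5 rose (median -0.51), among the falling ones the procollagen protease enhancer Pcolce (-5.35), the crosslinking oxidase Lox (-5.33) and the collagen chaperone Serpinh1 (-2.81). Of 14 matrix receptors, 7 fell and 3 rose (median -0.99). Itga1, an integrin chain for collagen IV, had 29.7 ± 1.48 CPM in tissue and 0.454 ± 0.520 CPM in sorted cells (-5.73), while Dag1, the laminin receptor dystroglycan, had 135 ± 4.68 and 134 ± 5.24 CPM (0.26, edgeR adjusted p = 0.0126). Dag1 counts among the 3 that rose, but its CPM, scaled by totals alone, was not higher in sorted cells. Its call thus rests on the scaling used in the fit. Adgrg1, the receptor GPR56 that binds collagen III at the pial surface, had 240 ± 4.98 and 234 ± 57.4 CPM (0.22, adjusted p = 0.228). Of 14 other matrix proteins 9 fell and 3 rose (median -1.74), and of 10 matrix proteases and inhibitors 5 fell and 2 rose (median -0.64).

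Most marker lists of other cell types were also lower in sorted cells. The 14 meningeal fibroblast markers summed to 1942 to 2136 CPM in the E12.5 controls and to 66.2, 11.6 and 24.5 CPM in the GFP controls, and all 14 fell. The 12 endothelial markers summed to 618 to 717 CPM against 48.8 to 53.4 CPM, and all 12 fell. The 8 pericyte markers summed to 264 to 292 CPM against 66.3, 40.1 and 14.1 CPM, and all 8 fell. Of these sums, 37.4 to 39.0 CPM in the GFP controls were Slc2a1, an endothelial glucose transporter, and 49.8, 30.1 and 9.04 CPM were Notch3, a receptor also made by neural progenitors. The choroid plexus markers tested all fell (9 of 9, median -5.69), as did those of cortical hem and Cajal-Retzius cells (9 of 9, -5.997) and erythroid cells (9 of 9, -4.27). No marker of the meningeal, endothelial and pericyte lists was at 0 in all GFP controls. Col1a1, Col1a2 and Col3a1 are among the meningeal markers and were left out of the members, with means of 299, 421 and 899 CPM in tissue and 5.92, 9.59 and 9.87 CPM in sorted cells. In the other direction, 8 of 9 cortical neuron markers rose, with sums of 2563 to 2891 CPM in tissue and 7782 to 10955 CPM in sorted cells, and 2 of 10 ventral telencephalon markers rose and 1 fell (median 2.72). Their part in the members' differences was not tested.

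The knockout comparison asks which members differ between the 2 libraries labelled L3mbtl3 knockout and the 3 E12.5 controls. Most of the set did not pass the test. Among the 50 members tested, Col5a2, Col2a1 and Col23a1 rose and Col4a4 and Col6a6 fell, that is 5 of 50, beside 7.41% of all 16361 genes tested (3.63% higher, 3.78% lower). The members' median log2 difference was 0.08, against -0.00 over all genes.

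**Figure D5:**
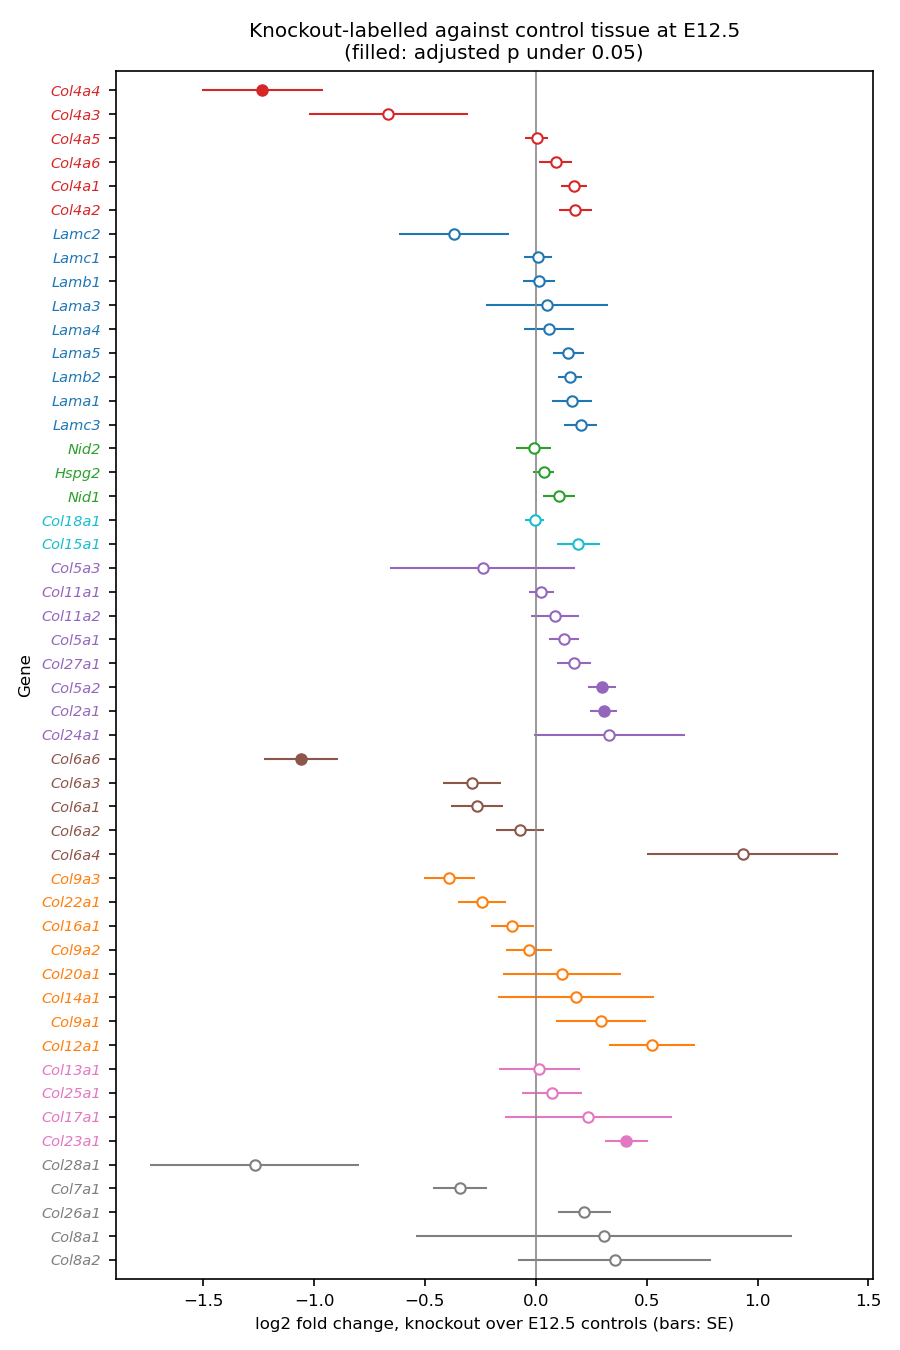
Log2 difference of each tested member between the 2 libraries labelled knockout and the 3 E12.5 controls, with its SE as a bar, ordered by size within each class (colours); filled points passed the test at an adjusted p under 0.05. Of the abundant members, Lamc1 (0.01) and Col18a1 (-0.00) lie near 0 and Col4a1 (0.17) and Col4a2 (0.18) above it, while Col5a2 (0.30) and Col2a1 (0.31) are called. The called members furthest from 0 are Col4a4 (-1.23) and Col6a6 (-1.06).

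The largest called differences were in rare chains. Col6a6, an alternative to the Col6a3 chain of collagen VI, had 5.40, 6.17 and 6.56 CPM in the controls and 3.04 and 2.70 CPM in the libraries labelled knockout (-1.06, SE 0.167, edgeR adjusted p = 0.00329, lower in 2 of 2). Both libraries labelled knockout were below all controls. It stayed called whichever library was left out, from -1.14 to -0.98 with an adjusted p of at most 0.0238. Col4a4, a chain of the kidney-type collagen IV, had 1.88, 2.36 and 2.64 CPM in the controls and 1.08 and 0.838 CPM, or 22 and 18 counts, in the libraries labelled knockout (-1.23, SE 0.273, edgeR adjusted p = 0.0189). The groups did not overlap, but the call was lost without heterozygote replicate 2 (adjusted p = 0.0535), knockout replicate 2 (0.124) or the wild-type library (0.0678), and by DESeq2 (0.0518). Its promoter neighbour Col4a3 had 0.750, 0.787 and 0.763 CPM against 0.491 and 0.465 CPM and was not called (-0.66, edgeR adjusted p = 0.311).

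The 3 members that rose did so by small amounts. Col5a2 had 244, 273 and 258 CPM in the controls and 339 and 294 CPM in the libraries labelled knockout (0.30, SE 0.0632, edgeR adjusted p = 0.0240). Col2a1 had 160, 148 and 166 CPM against 184 and 206 CPM (0.31, SE 0.0622, edgeR adjusted p = 0.0201). Col23a1 had 39.9, 45.2 and 35.4 CPM against 56.4 and 49.6 CPM (0.41, SE 0.0962, edgeR adjusted p = 0.0384). In each case both libraries so labelled were above all controls. None of these calls held in every fit that left out 1 library. Col5a2 was lost without the wild-type library (adjusted p = 0.0782), Col2a1 without knockout replicate 2 (0.0755), and Col23a1 without heterozygote replicate 1 (0.0880), knockout replicate 1 (0.124), knockout replicate 2 (0.0589) or the wild-type library (0.0583). The library labelled knockout replicate 2 was the only female one at E12.5, so a term for embryo sex nearly amounts to leaving it out. It is not a separate check. With that term, as without that library, the differences were 0.21 for Col2a1, 0.49 for Col23a1 and -1.07 for Col4a4, and these genes were not called.

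The main structural chains of the basement membrane were not called by edgeR with all libraries and the count filter. Col4a1 had 663, 738 and 636 CPM in the controls and 786 and 739 CPM in the libraries labelled knockout (0.17, SE 0.0590, edgeR adjusted p = 0.114), so both lay at or above the highest control. Col4a2 differed by 0.18 (SE 0.0740, edgeR adjusted p = 0.207). Without heterozygote replicate 2 both were called higher (Col4a1 0.24, adjusted p = 0.0330; Col4a2 0.25, adjusted p = 0.0452), and both were called without the count filter (0.000574 and 0.000759). DESeq2 called Col4a1 (adjusted p = 0.0467). Lamc1 differed by 0.01, Lamb1 by 0.01, Nid2 by -0.01, Hspg2 by 0.04 and Col18a1 by -0.00, with SEs of 0.0439 to 0.0787. Nid1 had 184, 201 and 173 CPM against 212 and 186 CPM (0.10, SE 0.0708). The 5 Col6 chains tested had 1 call, Col6a6, and the common chains Col6a1, Col6a2 and Col6a3 differed by -0.26, -0.07 and -0.29 with none called. Without the library labelled knockout replicate 1, Col6a1 (-0.44, adjusted p = 0.0190) and Col6a3 (-0.51, adjusted p = 0.00177) were called lower, as they were without the count filter (0.00396 and 0.000819). Col9a3, the member that was higher in sorted cells, had 12.53, 13.1 and 15.6 CPM in the controls and 10.4 in both libraries so labelled (-0.39, edgeR adjusted p = 0.0639). Col12a1, a fibril-associated collagen, had 29.1, 28.1 and 23.9 CPM against 46.6 and 31.1 CPM (0.52, SE 0.194, adjusted p = 0.211 by edgeR and 0.00655 by DESeq2). Without the library labelled knockout replicate 2, or with the sex term, its difference was 0.78 and rested on replicate 1. In those fits Col8a2 moved from 0.36 to 0.86 and Col5a1 from 0.13 to 0.24.

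L3mbtl3 lies on chromosome 10 (26274468 to 26375185), and 6 members are on the same chromosome. Lama4, the nearest one tested, lies 12.6 Mb away and differed by 0.06 (edgeR adjusted p = 0.832). Col13a1, Col6a2, Col6a1 and Col18a1 lie 35.5 to 50.7 Mb away, and none of the 5 tested was called.

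Matrix genes outside the set were called in both directions. Of 14 other basement membrane and matrix proteins, 5 rose and 2 fell. Fn1, fibronectin, rose from 452 ± 30.9 to 576 ± 26.7 CPM (0.36, edgeR adjusted p = 0.00369), and Npnt, an integrin ligand of basement membranes, fell from 27.2 ± 1.83 to 15.4 ± 0.447 CPM (-0.81, edgeR adjusted p = 0.000229). Of 26 synthesis and crosslinking genes the prolyl hydroxylase P3h2 (0.50) and the oxidase Loxl2 (0.37) rose and P4ha2 (-0.48) fell. Dag1 (0.23) was the 1 receptor of 14 called, and Mmp15 (0.47) and Mmp24 (-0.49) were the 2 of 10 proteases and inhibitors called.

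Of the vessel markers, the endothelial markers had 618 to 717 CPM in the controls and 669 to 692 CPM in the libraries labelled knockout, and pericyte markers had 264 to 292 and 310 to 311 CPM, with 0 of 12 and 0 of 8 called by edgeR's adjusted p. The meningeal markers had 1942 to 2136 against 2433 and 1991 CPM, with 3 of 14 lower and none higher. Without Col1a1, Col1a2 and Col3a1 the other 11 meningeal markers had 401 to 406 CPM in the controls and 418 and 373 CPM in the libraries labelled knockout. The first of these libraries was the higher for Col5a2, Col23a1 and Col12a1, and the second for Col2a1. Choroid plexus markers had 604 to 691 CPM in the controls and 292 and 285 CPM in the libraries labelled knockout, with 7 of 9 tested lower, and ventral telencephalon markers had 84.3 to 115 against 166 and 129 CPM, with 4 of 10 higher. Their part in the members' differences was not tested.

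The gain comparison asks which members differ when sorted cells carried extra L3mbtl3. No member was called among the 34 tested, by edgeR's quasi-likelihood test or by DESeq2, both with p-values adjusted over all genes tested (Benjamini-Hochberg). Of all 14698 genes, 0.0136% were called, or 2 genes, with 0.0068% higher and 0.0068% lower. At an unadjusted p under 0.05 there were 5 members by edgeR and 6 by DESeq2, against 1264 of all genes by edgeR. The members' median log2 difference was -0.20 over the 34 tested, against -0.03 over all genes. Of the members 22 were below 0, beside 54.5% of all genes.

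The sign of that median changed without 1 library. GFP control replicate 1 was the highest of the 6 sorted libraries for 21 of the 34 members (61.8%, against 27.7% of all genes). Without GFP control replicate 1 the members' median was 0.26, with 14 of 35 below 0. Over all genes that median was 0.004, with 49.7% below 0. The same library had the highest meningeal sum of the 6 sorted libraries (66.2 CPM, against 6.28 to 24.5 in the other 5). Without Col1a1, Col1a2 and Col3a1 that sum was 13.995 CPM, against 3.96 to 7.56 CPM. Its pericyte sum was also the highest (66.3 against 14.1 to 40.1), most of it Notch3, and stood at 16.6 against 4.33 to 10.1 CPM without that gene. Its collagen VI sum of 8.10 CPM compared with 0.736 to 2.93 in the others. Ventral telencephalon markers summed to 855, 278 and 23.4 CPM with the empty plasmid and to 234, 217 and 25.7 CPM with L3mbtl3 added. Of their tested folds 9 of 9 were below 0 with none called (median -1.14), beside 54.5% of all genes below 0. The part of these markers' cells in the members' levels was not tested.

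The 6 members with the smallest p are given by the rule for a comparison without calls. Col26a1, an extracellular collagen with an EMI domain, had 4.07, 2.79 and 5.63 CPM with the empty plasmid and 1.91, 1.87 and 1.37 CPM with added L3mbtl3 (-1.28, SE 0.347, edgeR adjusted p = 0.486). Col23a1 had 2.01, 1.20 and 1.010 CPM against 0.539, 0.670 and 0.528 CPM (-1.26, SE 0.409, edgeR adjusted p = 0.542). In both genes every gain library was below every control, without passing the test. Picking genes by small p favours such separation, and its share over all genes was not counted.

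The other 4 of the 6 were 3 collagen IV chains and Col11a1. Col4a6 had 6.37, 2.79 and 2.64 CPM with the empty plasmid and 1.67, 1.67 and 1.90 CPM with added L3mbtl3 (-1.16, SE 0.390, edgeR adjusted p = 0.549). Col4a1 had 27.9, 15.3 and 18.0 CPM against 13.6, 12.49 and 13.2 CPM (-0.63, SE 0.225, edgeR adjusted p = 0.551), and Col4a2 had 20.03, 11.8 and 13.6 CPM against 11.4, 9.24 and 9.60 CPM (-0.58, SE 0.222, edgeR adjusted p = 0.562). The groups did not overlap for any of the 3 chains, though GFP control replicates 2 and 3 were close to the gain libraries for Col4a1 and Col4a2. These chains too were picked by small p, which favours separate groups. Without GFP control replicate 1 the differences were smaller, at -0.64 for Col4a6, -0.36 for Col4a1 and -0.34 for Col4a2, with none called. The endothelial marker sum was also lower in every gain library than in every control, at 37.1 to 39.5 against 48.8 to 53.4 CPM. Of the tested folds of these markers 8 of 8 were below 0 (median -1.39) with 0 called, beside 54.5% of all genes below 0. Most of that sum was Slc2a1, and the other 11 markers summed to 11.4 to 14.5 CPM in the controls and 3.21 to 6.18 CPM in the gain libraries. One marker of the list was at 0 in all gain libraries. Their part in the collagen IV levels was not tested.

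Col11a1, a fibrillar collagen, had 48.6, 33.8 and 22.4 CPM with the empty plasmid and 51.2, 48.3 and 48.9 CPM with added L3mbtl3 (0.52, SE 0.234, edgeR adjusted p = 0.585). Control replicate 1 lay within the gain range. Without that library Col11a1 rose (0.82, adjusted p = 0.0484) and Col9a3 fell (-0.58, adjusted p = 0.0492). Without GFP control replicate 3 the Col11a1 difference was 0.30 and not called. In the full data Col9a3 had 34.6, 73.7 and 89.98 CPM against 57.6, 54.3 and 53.6 CPM, so the gain libraries lay inside the control range (-0.27, edgeR adjusted p = 0.781).

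Laminin levels overlapped between the groups for the abundant chains. Lamc1 had 54.2, 38.4 and 29.3 CPM with the empty plasmid and 44.8, 49.5 and 46.3 CPM with added L3mbtl3 (0.22, SE 0.195, edgeR adjusted p = 0.717). Lamb1 differed by -0.01 (SE 0.268), Lama5 by 0.41 (SE 0.412) and Hspg2 by 0.10 (SE 0.3002). None of the 24 synthesis genes, 12 receptors, 13 other matrix proteins and 8 proteases or inhibitors tested was called.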

How the data were processed

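Strand-specific polyadenylated RNA libraries were sequenced as single-end reads, per the labels' protocols. The deposited values are raw counts per gene from featureCounts 2.0.1, reversely stranded, over Ensembl GRCm38 exons, per the file headers. HISAT2 2.2.1, SAMtools 1.9, CASAVA 1.9, FastQC 0.11.8 and deepTools 3.3.0 stand in the submitters' processing notes. Of 46078 identifiers, 45143 had a symbol. Exons of 2 members (Col20a1 and Col7a1) overlap another gene on the same strand.

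Counts were tested in edgeR 4.0.16 (R 4.3.3; TMM, filterByExpr, robust quasi-likelihood fit, two-sided), separately per comparison, with Benjamini-Hochberg adjustment over all genes tested. A gene "rose" or "fell" at an adjusted p under 0.05. The SE is the log2 difference divided by the square root of F. CPM are counts scaled to a library total of 1000000. The fit was tested on simulated data. DESeq2 1.42.0, other scalings, no filter, a replicate block, a sex term and leaving out each library were alternatives. Members, gene lists and tests were chosen with earlier results of these data known. The rule named called members (up to 8 per direction between sorted cells and tissue), the 10 most abundant per kilobase, their trimer partners and, without calls, the 6 smallest p. Other members were named to cover the classes, after their values were seen. No label says that a group's libraries are separate embryos. The p-values thus reflect the spread between these samples alone. Floors and intervals cover counting error only. No libraries of one group were duplicates (chi-square per degree of freedom 2.48 to 86.3).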

Additional observations from a re-analysis of the deposited data

How the results depend on the processing

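The 38 members lower in sorted cells than in tissue numbered 33 to 40 when 1 library was left out, and 39 under each other setting. The 2 higher members numbered 1 to 4 without 1 library (1 without heterozygote replicate 1, 4 without GFP control replicate 3), 1 with scaling by totals alone and 5 with a replicate block. Over all genes that comparison called 7793 to 11333 without 1 library. In the knockout comparison the 3 higher members became 5 by DESeq2, 10 without a count filter, 1 with a replicate block and 1 to 7 without 1 library (7 without heterozygote replicate 2, 1 without the wild-type library). The 2 lower members became 1 by DESeq2, 5 without a filter, 1 with a sex term and 1 to 4 without 1 library (4 without knockout replicate 1, 1 without knockout replicate 2, heterozygote replicate 2 or the wild-type library). Of the 5 members called, 4 were also called by DESeq2, 2 with the sex term and 3 with the replicate block, which lost Col5a2 (adjusted p = 0.0563) and Col23a1 (0.0770). Over all genes the 1213 calls became 2266 without a filter, 654 with the sex term and 603 to 1785 without 1 library (603 without the wild-type library, 658 without knockout replicate 2 and 673 without heterozygote replicate 2). In the gain comparison leaving out 1 library gave 0 or 1 members higher and 0 or 1 lower, and the 2 calls over all genes became 119 by DESeq2, 1 with the sex term and 0 to 415 without 1 library (the highest when replicate 1 of the GFP controls was left out). Leaving out the second GFP control gave 0 calls and 693 genes at an unadjusted p under 0.05, and the edgeR adjusted p of L3mbtl3 was 0.0539. Whether replicate numbers pair the libraries was not settled. Same-numbered gain and control libraries correlated in their deviations at 0.179, 0.00968 and 0.256, and different-numbered ones at -0.271 to 0.115. The replicate block left 0 members called in the gain comparison, with a median of -0.04 and 18 of 34 below 0. Over all genes that median was -0.01, with 52.0% below 0. No direction reversed among the values named by the rule. The cause of these shifts was not tested. In the gain comparison 20 of the 54 members were not tested because they did not pass the count filter.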

Other observations

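Markers of microglia, which make little of this matrix, had a lower sum in sorted cells. Between the GFP and E12.5 controls 4 of 10 were called lower and none higher. Their median log2 difference was -1.22, with 9 folds below 0 and 1 above. The 10 genes summed to 15.2, 36.5 and 34.6 CPM in the GFP controls, 5.64 to 8.04 CPM in the gain libraries and 120 to 133 CPM in the E12.5 controls. All 8 tested had a lower mean in the gain libraries, with none called by edgeR, beside 54.5% of all genes with a fold below 0.

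Of the 3 collagen IV chain ratios, 1 did not overlap between the sorted groups. Per kilobase, Col4a5 was 1.96 to 3.72 times Col4a6 in the GFP controls, 5.51 to 6.46 times in the gain libraries and 3.77 to 4.32 times in the E12.5 controls. This ratio was picked out after its values were seen and was not tested. Both genes are X-linked, and the gain libraries were from embryos of both sexes while the GFP controls were male. The male gain replicate 2 had a ratio of 5.73, and the female gain replicates 1 and 3 had 6.46 and 5.51. At E12.5 the ratio was 3.58 in the female library labelled knockout replicate 2 and 3.90 in the male replicate 1. The part of sex in this ratio was not tested.

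Some of the rarest members were listed with few counts. Col8a1 had 133 counts over the E12.5 controls and 2 over the GFP controls, a ratio of 63.4 (exact 95% interval 17.2 to 529). Col28a1 had 44 and 2 counts, a ratio of 21.0 (5.47 to 179). Col6a4 had 18 and 3 counts, a ratio of 5.72 (1.67 to 30.3).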
